A study of Mus musculus with 12 samples.

Results

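The genes described here are targets of the transcription factor ATF4 and of the integrated stress response in mouse T cells with and without the kinase PERK. Of 42 listed genes, the 12 with at least 10 placed counts over all libraries were taken as members, out of 5906 genes of the series that reached that number. Placed counts are counts of table entries whose printed positions overlay the exons of exactly 1 gene (GRCm38, GENCODE M21). The list was set by gene name and not by a rule on measured differences, but earlier results of these data were known when it was chosen.

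Bulk RNA-Seq had been done on spleen T cells in 4 groups of 3 libraries. WT or PERK-cKO T cells had been cultured for 4 days with antigen-presenting cells (APCs) of an allogeneic strain, or for 3 days with antibodies to CD3 and CD28, which is called polyclonal stimulation. These times are those of the series description, whereas a figure legend of the study has 4 days for both stimulations. PERK-cKO T cells, labelled PERK-KO, came from mice on a C57BL/6 background with floxed PERK alleles and a Cre recombinase driven by CD4, which acts in CD4+ and CD8+ T cells, so APCs kept PERK. All 4 groups were cultured in the same medium with 10% serum, and the stimulations differed in the presence of APCs and, by the series description, in day as well as in the stimulus. Nothing in the labels says that the 3 libraries of a group came from separate mice, and p-values then measure only the spread between these libraries, which may be technical.

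PERK is one of the kinases that phosphorylate the translation factor eIF2α when protein folding in the endoplasmic reticulum, amino acid supply or other conditions are disturbed. Phosphorylated eIF2α lowers translation in general but favours translation of Atf4 mRNA, and ATF4 protein, paired with C/EBP family factors, binds promoter sites called CCAAT/enhancer binding protein-ATF response elements. Its known targets serve amino acid synthesis (Asns, Psat1, Aldh18a1, Cth), amino acid uptake (Slc7a11, Slc3a2, Slc1a5) and the charging of tRNAs (Gars, Tars), and include the phosphatase subunit that reverses eIF2α phosphorylation (Ppp1r15a), the stress-induced chromatin protein Nupr1 and the lipoprotein receptor Vldlr. In T cells, activation itself raises demand for amino acids, and ATF4 is known to take part in meeting it.

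RefSeq promoters (GRCm38.p6, 250 bases before to 50 bases after each start site) were searched for the core of this response element, TGATGNAA on either strand, since the members were listed as ATF4 targets. RefSeq promoters were found for 35 of the 42 listed genes, and 13 of these 35 (37.1%) held the core, against 4.13% of all 17491 protein-coding genes. Among the 12 members, 10 had a promoter in the table and 6 of these held the core, which were Asns, Slc7a11, Vldlr, Nupr1, Gars and Tars. The form TGATGCAA was among them in Slc7a11, Vldlr, Nupr1 and Tars, and in 0.865% of the 21262 promoters of protein-coding genes. The core was not found in these windows of Psat1, Aldh18a1, Slc3a2 or Ppp1r15a. Stretches that hold the matches are shown because genes with the same element had interactions of genotype and stimulation of opposite sign, positive for Slc7a11, Nupr1 and Vldlr and negative for Gars and Tars. They run 5′ to 3′ along the gene, with the 8 matching bases in capitals.
Slc7a11 (chr3:50443628-50443704, minus strand): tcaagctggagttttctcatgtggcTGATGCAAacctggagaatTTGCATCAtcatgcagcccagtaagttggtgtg
Nupr1 (chr7:126625562-126625591, minus strand): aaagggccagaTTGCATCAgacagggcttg
Vldlr (chr19:27216809-27216838, plus strand): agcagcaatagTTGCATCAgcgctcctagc
Asns (chr6:7693214-7693243, minus strand): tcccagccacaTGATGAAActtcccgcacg
Gars (chr6:55037946-55038000, plus strand): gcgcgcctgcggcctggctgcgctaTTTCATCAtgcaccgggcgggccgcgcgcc
Tars (chr15:11399659-11399684, minus strand): caggagtcccgTTGCATCAgctggtt
Slc7a11 held the element on both strands, with first bases at -66 and -47 from its start site, and the other 5 genes held 1 match each. Such a match is a description of the letters and shows no binding in these cells.

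Total counts were 3132702 to 4631908 per library and placed counts 1568431 to 2327503, 50.4% of all counts. Values are placed counts scaled to a common library size (CPM), and a count of 0 allows up to 3 counts. The entries covered all exon bases of Asns (chr6:7675169-7693254, minus strand) and 77.0% of those of Tars (chr15:11382301-11399665, minus strand), but 2.9% to 41.4% of those of the other 10 members, among them 14% for Slc7a11 (chr3:49892526-50443614, minus strand), 41.4% for Nupr1 (chr7:126623249-126630861, minus strand) and 8.5% for Vldlr (chr19:27216484-27254231, plus strand). Their counts can also hold reads from the other bases of the entry, which makes these values uncertain as measures of the named gene. The entries of 6 members were listed under other names, which were Wdr74 for Slc3a2 (20.9% of its bases in Slc3a2 exons), 4833404L02Rik for Slc1a5 (26.2%), U4 for Ppp1r15a (5.8%), Maz, Kif22 and Gm31749 for Nupr1 (12.3%), Gm43485 for Cth (7.7%) and Gm3329 for Psat1 (78.4%). Entries of Asns, Tars, Slc7a11, Aldh18a1 and Gars were listed under the same name, the last with 6.0% of its bases in Gars exons and Aldh18a1 with 5.2%, and Vldlr had 1 of its 2 entries under its own name (8.0% for both). Eif2ak3, which encodes PERK, was at 91.2 to 106 CPM in WT and 66.5 to 73.6 CPM in PERK-cKO libraries after allogeneic stimulation, a log2 difference of -0.49 (SE 0.137, adjusted p = 0.00759), and at 44.1 to 79.8 and 45.2 to 51.0 CPM after polyclonal stimulation (-0.36, SE 0.190, adjusted p = 0.171). The sources used here do not place these counts inside or outside the deleted exons, so they check the labels only in part. T cell markers, with 7 of 14 genes measured, summed to 6778 to 6862 CPM in WT and 5816 to 6428 CPM in PERK-cKO libraries after allogeneic stimulation, and to 4461 to 4576 and 5613 to 5981 CPM after polyclonal stimulation. They were lower in PERK-cKO libraries for 4 of 5 genes tested after allogeneic stimulation, beside 14.5% of all genes. After polyclonal stimulation 3 of 7 were higher and 1 lower, beside 16% and 15.8% of all genes. In the interaction 6 of 7 were lower, beside 17.2% of all genes. Cd3e, Cd3d, Cd3g, Cd4 and Cd8a had no placed entry. Counts of Y-linked genes were 3335 to 4716 in each WT allogeneic library and 0 in the other 9 libraries, so the sex of the cells and this group cannot be told apart. Markers of other cells were high in the PERK-cKO allogeneic libraries, as the plot of marker levels shows. Basophil and mast cell markers (5 of 8 measured) summed to 137 to 152 CPM in WT and 2927 to 3171 CPM in PERK-cKO libraries after allogeneic stimulation, and to 3.68 to 7.26 and 29.9 to 35.1 CPM after polyclonal stimulation. Macrophage and monocyte markers (5 of 12) summed to 234 to 271, 1606 to 1816, 102 to 113 and 107 to 139 CPM in the same order, with Lyz2 at 0 counts in all WT polyclonal libraries. Of these sums Ctss alone gave 184 to 209, 660 to 730, 99.0 to 111 and 104 to 138 CPM, which is most of the sum outside the PERK-cKO allogeneic libraries. Lyz2 was at 45.2 to 60.8 CPM in WT and 850 to 1058 CPM in PERK-cKO libraries after allogeneic stimulation. B cell markers (2 of 8) summed to 89.9 to 118 CPM in WT and 192 to 222 CPM in PERK-cKO allogeneic libraries, and dendritic cell markers (3 of 8) to 1.76 to 7.91 and 45.5 to 61.5 CPM. In bulk samples, fewer cells of a type and less RNA per cell cannot be told apart, and the part of such cells in the results that follow was not tested.

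**Figure D1:**
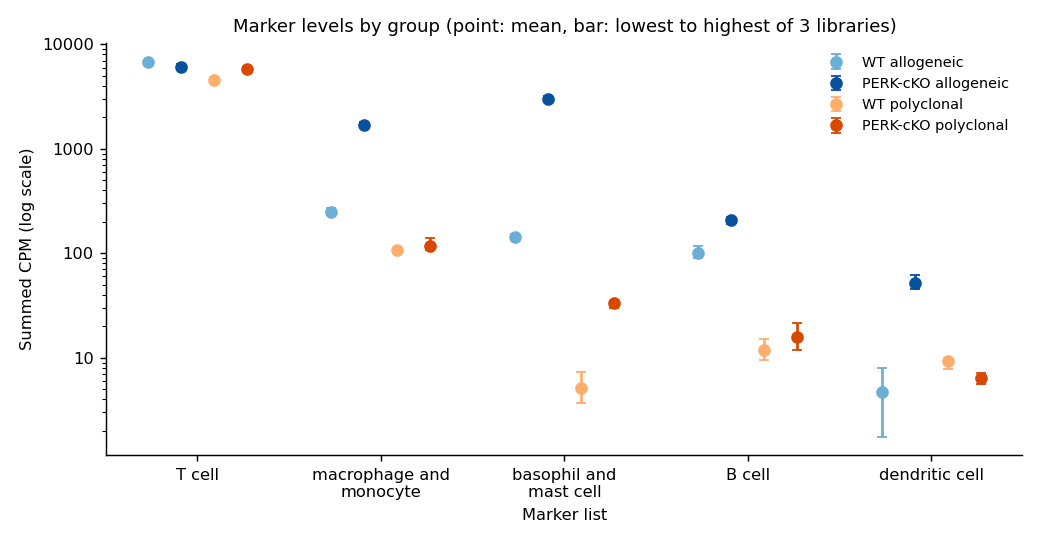
Summed CPM (y axis, log scale) of 5 lists of cell type markers (x axis) in the 4 groups; points are means and bars run from the lowest to the highest of 3 libraries. PERK-cKO allogeneic libraries stood above all others for the macrophage, basophil, B cell and dendritic cell lists, at 2927 to 3171 CPM for basophil and mast cell markers, while T cell markers were at 6778 to 6862 CPM in WT and 5816 to 6428 CPM in PERK-cKO libraries after allogeneic stimulation.

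After allogeneic stimulation, 6 of the 10 members tested were higher in PERK-cKO than in WT T cells and 0 were lower (edgeR's quasi-likelihood test, adjusted p under 0.05). These were the transporter genes Slc7a11 and Slc3a2, the asparagine synthetase gene Asns, and Nupr1, Vldlr and Ppp1r15a. Of all 4093 genes tested, 33.0% were called, 18.5% higher and 14.5% lower. The median log2 difference was 0.63 over the 10 members and -0.02 over all genes. With the symbols as listed in the table, 4 of 16 listed genes tested were called, beside 2734 of 9467 genes, and their median was 0.09, so the higher median depends on how entries are given to genes. Without a filter the members' median was 0.26, over 12 members. At an unadjusted p under 0.05, 6 members were higher and 2 lower, and DESeq2 called 6 higher and 0 lower.

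Slc7a11 encodes the cystine/glutamate exchanger xCT, which supplies cysteine for glutathione. It was at 13.8, 15.3 and 11.1 CPM in the WT libraries and at 106, 108 and 117 CPM in the PERK-cKO libraries after allogeneic stimulation. This 8.23-fold difference (log2 3.04, SE 0.183, adjusted p = 3.03e-12) was the largest among the members in this comparison. Slc3a2 encodes the heavy chain CD98 that xCT and other light chains need to reach the cell surface. Its levels were 387, 407 and 359 CPM in WT and 703, 653 and 734 CPM in PERK-cKO libraries, a 1.82-fold difference (log2 0.86, SE 0.0915, adjusted p = 7.03e-08). Slc1a5, a neutral amino acid transporter that carries glutamine, overlapped between the genotypes at 41.7 to 61.5 and 39.0 to 51.7 CPM (log2 -0.15, adjusted p = 0.581). The 3 transporter genes thus did not move as one.

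Nupr1 lay at 11.9, 11.7 and 13.2 CPM in WT and at 33.5, 30.1 and 34.1 CPM in PERK-cKO libraries, with no overlap (log2 1.40, SE 0.247, adjusted p = 8.43e-05). Ppp1r15a encodes GADD34, the inducible phosphatase subunit. It was at 30.1, 32.3 and 36.9 CPM in WT and 62.2, 51.7 and 55.4 CPM in PERK-cKO libraries (log2 0.77, SE 0.178, adjusted p = 0.00152), but its only placed entry was listed as copies of the small nuclear RNA U4 on many chromosomes, so this value is the least certain. Vldlr, the very low density lipoprotein receptor, was at 6.27, 8.81 and 10.0 CPM in WT and 24.0, 10.5 and 21.3 CPM in PERK-cKO libraries. Its lowest PERK-cKO library almost touched the highest WT library (log2 1.14, SE 0.356, adjusted p = 0.0156). Without WT replicate 1, PERK-cKO replicate 1 or PERK-cKO replicate 3 the log2 difference was 0.98, 0.89 and 1.05 and the adjusted p 0.0536, 0.107 and 0.0554, so the call was lost while the direction was kept.

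Among the enzymes of amino acid synthesis, Asns was at 256, 253 and 223 CPM in WT and 367, 312 and 349 CPM in PERK-cKO libraries (log2 0.50, SE 0.101, adjusted p = 0.000424). Aldh18a1, which starts proline synthesis from glutamate, lay at 68.6 to 71.7 and 68.2 to 78.4 CPM (log2 0.07, adjusted p = 0.748). Cth, which makes cysteine from cystathionine, had counts of 2 to 9 per library in the allogeneic groups and was not in the main test between them. Psat1, of serine synthesis, had 0 to 5 counts in every library of the series and was in no main test. Both entered the fit without a filter. Both tRNA synthetase genes lay slightly lower in PERK-cKO libraries without passing the test. Gars, for glycine, was at 203, 221 and 198 CPM in WT and 172, 193 and 158 CPM in PERK-cKO libraries (log2 -0.25, SE 0.109, adjusted p = 0.0911). Tars, for threonine, was at 1027, 1184 and 1073 CPM in WT and 939, 992 and 919.7 CPM in PERK-cKO libraries (log2 -0.20, SE 0.0892, adjusted p = 0.0884), and passed with all 12 libraries in one fit (adjusted p = 0.0483).

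**Figure D2:**
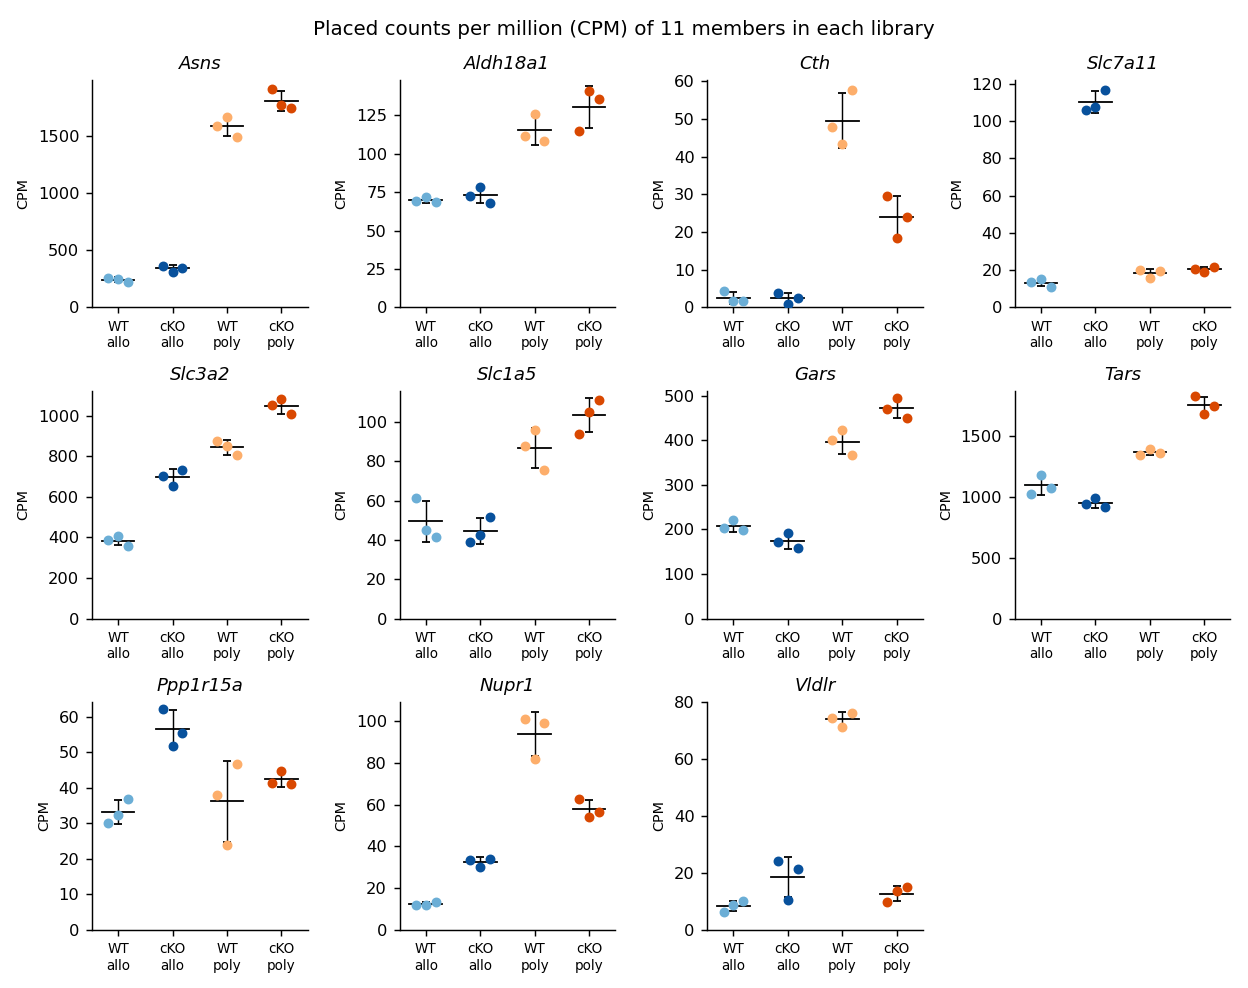
CPM of placed counts (y axis, linear, from 0) of 11 members in each of 12 libraries (points) by group (x axis, allo for allogeneic and poly for polyclonal); lines are means and bars SD of 3 libraries. Slc7a11 stood at 106 to 117 CPM in the PERK-cKO allogeneic libraries and at 11.1 to 21.5 CPM in the other 9, and Vldlr at 71.2 to 76.3 CPM in the WT polyclonal libraries against 6.27 to 24.0 CPM in the other 9.

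After polyclonal stimulation, 11 members were tested. With PERK deleted, Slc3a2, Tars and Gars (3 of 11) were higher and Vldlr, Nupr1 and Cth (3 of 11) lower. Of all 3937 genes, 31.8% were called, 16% higher and 15.8% lower, so both directions were about as common among all genes. The median log2 difference was 0.18 over the 11 members and 0.00 over all genes.

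Vldlr was at 74.6, 71.2 and 76.3 CPM in WT and at 9.67, 13.7 and 14.9 CPM in PERK-cKO libraries, which is 5.91-fold lower (log2 -2.56, SE 0.191, adjusted p = 1.37e-07). The WT polyclonal libraries thus stood apart from all other groups for this gene. Over all genes, WT polyclonal replicate 1 departed most from its partners. Chi-square per degree of freedom against counting noise was 54.4 and 61.4 for replicate 1 with replicates 2 and 3. Other pairs within a group had 3.88 to 16.1. Nupr1 was at 101, 81.6 and 99.1 CPM in WT and 62.4, 54.2 and 56.4 CPM in PERK-cKO libraries (log2 -0.71, SE 0.132, adjusted p = 0.000748). Cth was at 47.8, 43.3 and 57.6 CPM in WT and 29.5, 18.5 and 24.1 CPM in PERK-cKO libraries (log2 -1.04, SE 0.201, adjusted p = 0.00105). For each of these 3 genes the genotypes did not overlap, and the call held under every alternative that could be run on it.

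Tars, at 1345, 1395 and 1365 CPM in WT, was at 1826, 1684 and 1749 CPM in PERK-cKO libraries (log2 0.34, SE 0.0734, adjusted p = 0.00222). Slc3a2 was at 876, 851 and 804 CPM in WT and 1051, 1084 and 1008 CPM in PERK-cKO libraries (log2 0.30, SE 0.0766, adjusted p = 0.00756). Gars was at 401, 423 and 367 CPM in WT and 471, 494 and 451 CPM in PERK-cKO libraries. Its difference was near the threshold (log2 0.23, SE 0.0855, adjusted p = 0.0483) and the call was lost under 10 of 14 alternatives, among them DESeq2 (adjusted p = 0.104). Slc7a11, so different after allogeneic stimulation, overlapped here at 15.9 to 19.96 CPM in WT and 19.1 to 21.5 CPM in PERK-cKO libraries (log2 0.13, SE 0.228, adjusted p = 0.711). Asns was at 1593, 1668 and 1496 CPM in WT and 1909, 1774 and 1743 CPM in PERK-cKO libraries, with no overlap but no call (log2 0.18, SE 0.0771, adjusted p = 0.0980). Aldh18a1 (0.16), Slc1a5 (0.24) and Ppp1r15a (0.21) had log2 differences that did not pass the test, with adjusted p from 0.164 to 0.482.

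**Figure D3:**
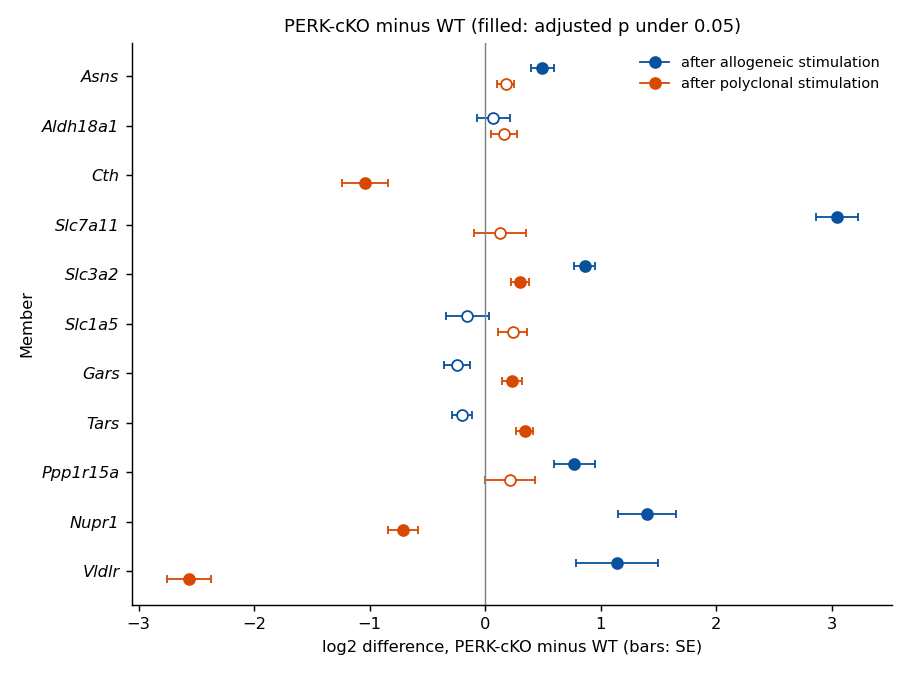
log2 difference of PERK-cKO minus WT (x axis) for 11 members (y axis) after allogeneic (blue) and polyclonal (orange) stimulation; bars are SE and filled points have an adjusted p under 0.05. Nupr1 and Vldlr lay above 0 after allogeneic (1.40 and 1.14) and below 0 after polyclonal stimulation (-0.71 and -2.56), and Slc7a11 was at 3.04 and 0.13. Cth was not in the main test after allogeneic stimulation.

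Whether the genotype difference itself depended on the stimulation was tested by the interaction over all 12 libraries. Of 11 members tested, 6 passed. For Slc7a11, Slc3a2, Vldlr and Nupr1, the PERK-cKO minus WT difference was higher after allogeneic than after polyclonal stimulation, and for Gars and Tars it was lower. Over 4402 genes, 33.9% were called, 16.7% higher and 17.2% lower, and the median was 0.01, against 0.54 over the 11 members. The members' median was 0.25 with the symbols as listed and 0.34 without WT polyclonal replicate 3.

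The interaction was 3.69 on the log2 scale for Vldlr (SE 0.389, adjusted p = 1.70e-07), 2.89 for Slc7a11 (SE 0.269, adjusted p = 2.57e-08), 2.09 for Nupr1 (SE 0.239, adjusted p = 5.07e-07) and 0.54 for Slc3a2 (SE 0.115, adjusted p = 0.000737). These values arose in different ways. Slc7a11 differed between the genotypes in 1 stimulation, Slc3a2 was higher in PERK-cKO T cells in both, and Vldlr and Nupr1 had opposite signs. For Tars the interaction was -0.56 (SE 0.110, adjusted p = 0.000351) and for Gars -0.50 (SE 0.134, adjusted p = 0.00597), opposite in sign to Slc7a11 and Slc3a2. All 6 calls held under every alternative that could be run on them. Asns missed the threshold (0.30, SE 0.123, adjusted p = 0.0614) and passed with DESeq2 (0.36, adjusted p = 0.0279). Ppp1r15a (0.54, SE 0.276, adjusted p = 0.143), Cth (1.02, SE 0.648, adjusted p = 0.240), Slc1a5 (-0.41, SE 0.221, adjusted p = 0.163) and Aldh18a1 (-0.11, SE 0.168, adjusted p = 0.667) did not pass. Beside these values, the macrophage gene Lyz2 and the basophil gene Prss34 were 4.16 and 4.51 log2 units higher in PERK-cKO than in WT libraries after allogeneic stimulation, and their part in the members' differences was not tested.

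Compared with polyclonal stimulation, allogeneic stimulation went with lower levels of most members in both genotypes. In WT T cells 9 of 11 members tested were lower and 0 higher, by edgeR at an adjusted and at an unadjusted p under 0.05 and by DESeq2, where 48.6% of 3985 genes were called, 24.5% higher and 24.1% lower. Of the same 11 members, 8 were lower and 2 higher in PERK-cKO T cells, where 51.4% of 4159 genes were called, 27.7% higher and 23.8% lower. The median over members was -0.97 in WT (-2.79 over the 3 members left with entries at least 50% inside exons) and -0.84 in PERK-cKO T cells, beside -0.02 and 0.00 over all genes. The presence of APCs differed too, and by the series description the day, so the stimulus cannot be told apart from them.

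Asns carried one of the larger differences, with WT levels of 223 to 256 CPM after allogeneic and 1496 to 1668 CPM after polyclonal stimulation (6.65-fold lower, log2 -2.73, SE 0.0876, adjusted p = 4.71e-11). In PERK-cKO libraries it was at 312 to 367 and 1743 to 1909 CPM (log2 -2.40, SE 0.0906, adjusted p = 2.60e-13). Cth counts in WT were 3 to 7 per library after allogeneic and 87 to 111 after polyclonal stimulation (log2 -4.30, SE 0.328, adjusted p = 2.36e-07), and in PERK-cKO libraries 2 to 9 and 31 to 67 (log2 -3.25, SE 0.400, adjusted p = 2.24e-06). Aldh18a1 was 1.69-fold lower in WT (adjusted p = 9.77e-05) and 1.79-fold lower in PERK-cKO T cells (adjusted p = 2.61e-05). These 3 enzymes thus had lower levels after allogeneic stimulation in both genotypes, whereas among enzymes outside the list Glul, for glutamine, was higher in WT (log2 1.08, adjusted p = 2.50e-05) and Ass1, of arginine synthesis, higher in PERK-cKO T cells (0.96, adjusted p = 0.00946).

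The tRNA synthetase genes were lower as well. Gars had a log2 difference of -0.97 in WT (SE 0.0886, adjusted p = 1.32e-06) and -1.44 in PERK-cKO T cells (SE 0.0976, adjusted p = 8.24e-10). Tars had -0.35 (SE 0.0799, adjusted p = 0.00252) and -0.89 (SE 0.0802, adjusted p = 4.25e-08). Of the transporters, Slc3a2 was 2.24-fold lower in WT and 1.51-fold lower in PERK-cKO after allogeneic stimulation (adjusted p = 9.51e-08 and 1.01e-05), and Slc1a5 1.80-fold and 2.34-fold lower (adjusted p = 0.000673 and 1.55e-06), a WT call lost with the symbols as listed (log2 -0.27, adjusted p = 0.666). Slc7a11 did not share this pattern. In WT T cells it did not pass the test (log2 -0.50, SE 0.260, adjusted p = 0.127), and in PERK-cKO T cells it was 5.35-fold higher after allogeneic stimulation (log2 2.42, SE 0.153, adjusted p = 3.06e-10). Nupr1 was lower in both genotypes, by 7.75-fold in WT and 1.78-fold in PERK-cKO T cells (adjusted p = 2.76e-08 and 0.000355). Vldlr was 8.88-fold lower in WT (adjusted p = 4.84e-08) and overlapped between stimulations in PERK-cKO T cells (log2 0.56, adjusted p = 0.161). The uncertain Ppp1r15a value was higher in PERK-cKO T cells (log2 0.42, SE 0.158, adjusted p = 0.0340), a call that 8 of 13 alternatives lost.

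**Figure D4:**
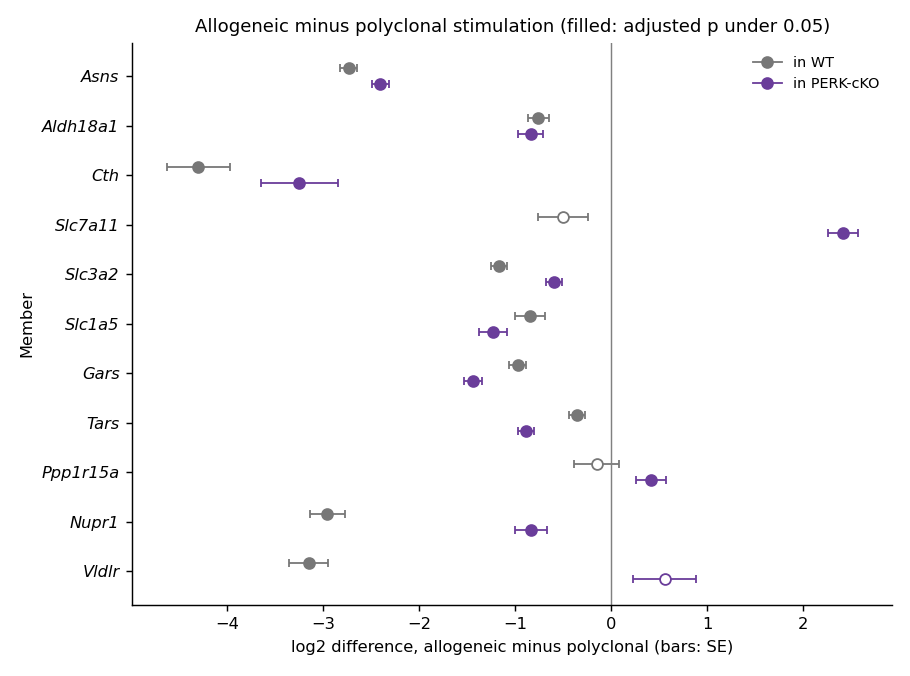
log2 difference of allogeneic minus polyclonal stimulation (x axis) for 11 members (y axis) in WT (grey) and PERK-cKO (purple) T cells; bars are SE and filled points have an adjusted p under 0.05. Most points lay below 0, Asns at -2.73 and -2.40 and Cth at -4.30 and -3.25, while Slc7a11 in PERK-cKO T cells stood at 2.42.

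The other 30 listed genes had no placed entry, so that no test is given for them. For 12 of them an entry overlay the gene together with another one, and its counts cannot be divided between the genes. The values of such entries are given as measured, with no test. The entry over Atf4, the central factor, was listed as Cacna1i and also lay on Mief1 and Rps19bp1. Of its 9862 bases, 778 lay on Atf4 exons and 242 on the other genes, so it is no measure of Atf4 alone. This entry was at 2147 to 2193 CPM in WT and 2298 to 2593 CPM in PERK-cKO libraries after allogeneic stimulation, and at 3540 to 3703 and 4289 to 4750 CPM after polyclonal stimulation. For this entry the genotypes did not overlap in either stimulation, and the polyclonal libraries were the higher ones. The share of all entries without overlap was not counted. The entry over Ddit3, which encodes the ATF4-induced factor CHOP, had 171 of its 5987 bases on Ddit3 exons and 628 on 6 other genes. It overlapped between genotypes at 292 to 314 and 285 to 331 CPM after allogeneic and 348 to 402 and 364 to 405 CPM after polyclonal stimulation. Chac1, which encodes a glutathione-degrading enzyme, shared an entry with Ino80, with 192 of its 6042 bases on Chac1 exons. The genotypes overlapped there as well (means of 42.8 ± 10.2 and 41.6 ± 2.84 CPM, then 93.9 ± 7.46 and 95.0 ± 4.42 CPM).

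Some shared entries are put together here by the signs of their means. These were lower in PERK-cKO than in WT libraries after allogeneic and higher after polyclonal stimulation, the signs that Gars and Tars showed. The second entry over Gars, shared with Crhr2, was at 338 to 364 and 324 to 344 CPM after allogeneic and at 506 to 550.4 and 653 to 746 CPM after polyclonal stimulation. The entry over the arginine transporter gene Slc7a1 (with Mtus2) had means of 793 ± 54.8 (SD, n = 3) and 696 ± 5.78 CPM, then 1118 ± 109.9 and 1542 ± 34.1 CPM. Mthfd2, of mitochondrial one-carbon metabolism, had an entry shared with Slc4a5 and Gm43890 at 171 ± 17.1 and 131 ± 3.39 CPM, then 307 ± 9.97 and 406 ± 23.9 CPM. The larger entry over Wars, for tryptophan, was at 1068 ± 96.8 and 881 ± 8.77 CPM, then 595 ± 29.2 and 861 ± 31.1 CPM. The entry over Lars, for leucine, was at 68.7 ± 12.6 and 56.2 ± 4.92 CPM, then 101 ± 6.63 and 143 ± 12.9 CPM. The smaller entry over Wars, listed under Wars itself, did not have these signs, at 41.2 ± 9.17 and 46.4 ± 4.72 CPM, then 37.4 ± 4.75 and 34.4 ± 6.76 CPM. The allogeneic ranges overlapped for the Gars and Lars entries, and the polyclonal ranges for none of the Gars, Slc7a1, Mthfd2, Lars and larger Wars entries. As these were picked by their signs, and overlap over all entries was not counted, no result is drawn from this. Beside it, 33.0% and 31.8% of all genes tested were called between genotypes. Bases on the listed gene were 380 of 5115 (Gars), 2232 of 11530 (Slc7a1), 488 of 4794 (Mthfd2), 125 of 5634 (Lars) and 1355 of 4793 (Wars).

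The entry over Ppp1r15a and Tulp2 was at 57.5 ± 8.66 and 102 ± 3.88 CPM after allogeneic and 60.6 ± 6.20 and 56.3 ± 9.01 CPM after polyclonal stimulation and, unlike the U4 entry, was listed under a protein-coding gene, Kdelr1. For Sesn2, a stress-induced inhibitor of the growth kinase complex mTORC1, the entry listed as Themis2 was at 32.9 to 54.6 and 75.4 to 86.6 CPM, then 78.8 to 94.1 and 66.1 to 98.8 CPM, and the one listed as Rpa2 at 32.9 to 52.2 and 60.9 to 72.3 CPM, then 66.2 to 95.5 and 59.3 to 72.8 CPM. Phgdh, of serine synthesis, shared an entry that was at 32.4 ± 4.23 and 19.5 ± 0.612 CPM after allogeneic and 77.1 ± 3.98 and 73.6 ± 8.65 CPM after polyclonal stimulation, lower in PERK-cKO libraries in the first. The entry over Sars, for serine, had 19 of its 1452 bases on Sars exons and 125 on Gm43438, so it says little of Sars, and had lower means in PERK-cKO libraries after both stimulations (161 ± 22.2 and 119 ± 5.47 CPM, then 281 ± 37.3 and 255 ± 32.1 CPM). The second entry over Aldh18a1, listed as Tctn3, was at 95.1 ± 9.08 and 82.8 ± 5.45 CPM, then 112 ± 11.4 and 115 ± 7.19 CPM, with ranges that overlapped in both stimulations. Those over Atf5, an ATF4-related factor, and Gpt2, which makes alanine, had higher means in PERK-cKO libraries in both stimulations, at 81.6 and 93.6 CPM, then 144 and 154 CPM for Atf5, and 40.0 and 50.6 CPM, then 112 and 122 CPM for Gpt2. No entry lay on the exons of the other 18 genes, which were Atf3, Ddit4, Trib3, Psph, Shmt2, Mthfd1l, Pycr1, Slc7a5, Slc7a3, Slc38a2, Slc1a4, Slc6a9, Cebpb, Cebpg, Aars, Nars, Eprs and Iars.

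**Figure D5:**
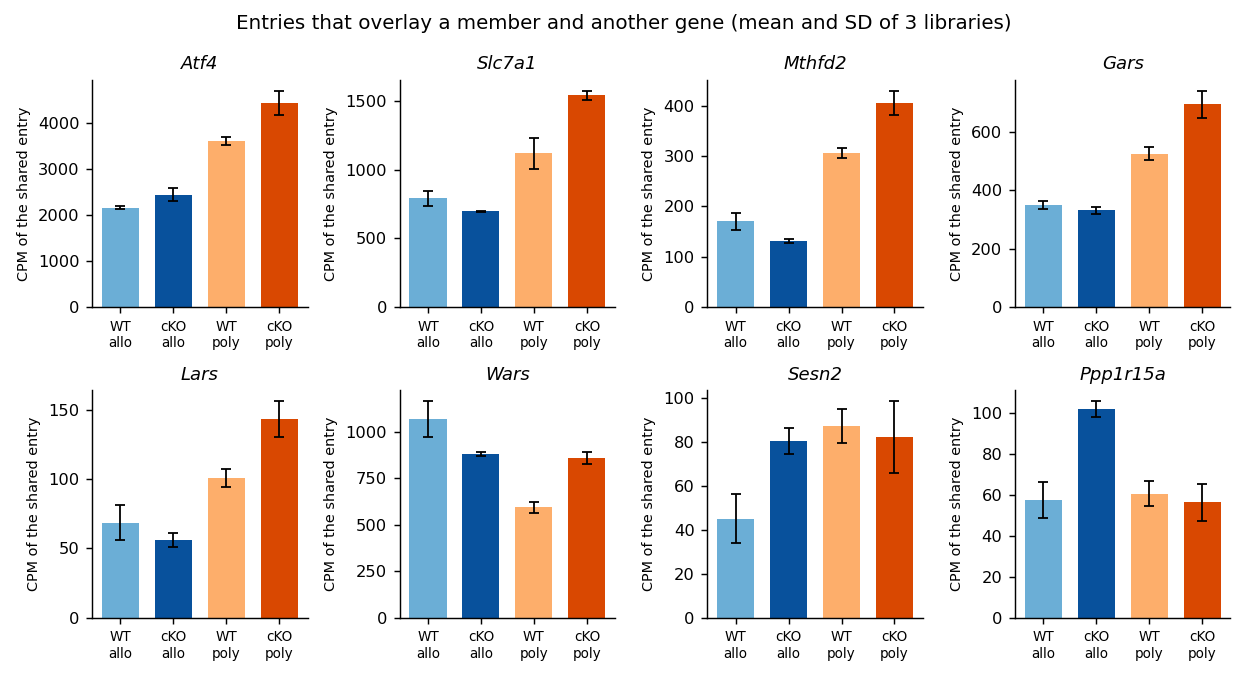
CPM (y axis, from 0) of 8 table entries that overlay a listed gene and at least 1 other gene, by group (x axis); bars are means and error bars SD of 3 libraries, with no test. The Atf4 entry had means of 2165 and 2447 CPM in WT and PERK-cKO libraries after allogeneic and 3615 and 4449 CPM after polyclonal stimulation.

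Genes near this pathway that are not on the list moved in both directions. Of 25 other genes tied to ATF4 or CHOP, 4 were tested. Gdf15, a stress-induced cytokine, was at 1.58 to 4.39 CPM in WT and 51.1 to 73.3 CPM in PERK-cKO libraries after allogeneic stimulation (log2 4.52, SE 0.312, adjusted p = 3.84e-11), and did not pass after polyclonal stimulation (0.16, adjusted p = 0.776). Lonp1, a mitochondrial protease, was lower in PERK-cKO T cells after both (-0.51, adjusted p = 0.000108, and -0.58, adjusted p = 5.45e-05). Klhl24 was lower after polyclonal stimulation (-1.13, adjusted p = 0.000229), and Uvrag higher after allogeneic stimulation (0.43, adjusted p = 0.0214). Of the other amino acid and one-carbon enzymes, 7 of 22 were tested. After allogeneic stimulation edgeR called 3 lower and 0 higher (4 and 0 at an unadjusted p under 0.05, 1 and 0 by DESeq2), among them Bcat1 (-0.93, adjusted p = 0.0397). After polyclonal stimulation 3 were higher, among them the folate enzymes Mthfd1 (0.90, adjusted p = 3.87e-05) and Shmt1 (0.57, adjusted p = 0.000429), and 1 was lower, Bcat1 (-0.69, adjusted p = 0.00816). Of 14 other amino acid transporters, 6 were tested in each genotype comparison. Slc7a8, another light chain partner of Slc3a2, was at 4.70 to 8.44 CPM in WT and 80.4 to 88.3 CPM in PERK-cKO libraries after allogeneic stimulation (3.70, SE 0.230, adjusted p = 5.87e-12), and was the only one called there. Slc38a9 (-0.61, adjusted p = 0.00593) and Slc43a2 (-0.88, adjusted p = 0.00865) were lower after polyclonal stimulation. Of 14 other tRNA synthetase genes and scaffold genes, 3 were tested, and after polyclonal stimulation Farsa was higher in PERK-cKO than in WT (0.53, adjusted p = 0.00119), with 0 called after allogeneic stimulation by edgeR, also at an unadjusted p under 0.05, or by DESeq2. Among the eIF2α kinases, Eif2ak4, which senses amino acid shortage, did not pass between genotypes (0.43, adjusted p = 0.0861, and -0.25, adjusted p = 0.139), but its interaction passed (0.67, SE 0.198, adjusted p = 0.0112).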

How the data were processed

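Bulk RNA-Seq counts of 12 libraries, 3 in each of 4 groups, were analysed. Libraries were assigned to groups by their labels. The authors deposited raw counts of read pairs per gene symbol, made with featureCounts 2.0.1 on exons of GENCODE M27 without strand, so reads of overlapping or antisense genes cannot be told apart. The submitters' processing notes name the build mm10, and the aligner is not given in the sources used here. The M27 positions belong to a later build than mm10, so each of the 53762 table entries was laid, with positions as printed, on GRCm38 exons (GENCODE M21). An entry with 50 bp or more on the exons of a single gene was placed on that gene, leaving small RNAs out, and the 13386 placed entries, summed per gene, held 50.4% of the counts. Entries over several genes held 46.9% and entries over no exon 1.85%. All columns of counts belonged to the 12 libraries.

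Placed counts were filtered with filterByExpr, normalized by TMM and tested with edgeR 4.0.16 (glmQLFit and glmQLFTest, two-sided, R 4.3.3), with Benjamini-Hochberg adjustment over all genes tested and a call at an adjusted p under 0.05. Each comparison of 2 groups used its 6 libraries and the interaction all 12. SE was the absolute log2 difference divided by the square root of the F statistic. The fits were tested on simulated data. Alternatives were each library left out in turn, the symbols as listed, an overlap of at least 200 bp, entries at least 50% inside exons, DESeq2 1.42.0, scaling by RLE factors or by library size, a fit of all 12 libraries, the replicate number as a block, and a filter that was omitted or set to 10 counts per library. Every member with at least 10 placed counts was described, and at most 4 genes of each other pathway list by smallest adjusted p between genotypes. Members, lists and tests were chosen with earlier results of these data known. Limits of 3 counts cover counting error only.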

Additional observations from a re-analysis of the deposited data

Results flagged for a closer look

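The genotype difference of 6 members differed between the stimulations by the interaction test of edgeR over all 12 libraries, given as PERK-cKO minus WT after allogeneic stimulation minus the same after polyclonal stimulation on the log2 scale. It was 3.69 for Vldlr (adjusted p = 1.70e-07), for which WT polyclonal libraries at 71.2 to 76.3 CPM stood apart from the other 9 at 6.27 to 24.0 CPM. For Slc7a11 it was 2.89 (adjusted p = 2.57e-08), and PERK-cKO allogeneic libraries at 106 to 117 CPM stood apart. Nupr1 had 2.09 (adjusted p = 5.07e-07) and Slc3a2 0.54 (adjusted p = 0.000737). Gars, at -0.50 (adjusted p = 0.00597), and Tars, at -0.56 (adjusted p = 0.000351), had the opposite sign. WT allogeneic libraries were the only ones with Y-linked counts, and PERK-cKO allogeneic libraries had the highest basophil, macrophage, B cell and dendritic cell marker sums. The part of either in these 6 values was not tested.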

How the results depend on the processing

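The count of members called stayed within 1.5 times its value under every alternative except that of entries at least 50% inside exons, which left 3 members to test by its construction. It then was 2 between genotypes after allogeneic and 2 after polyclonal stimulation, 3 in the interaction, and 3 in WT and 2 in PERK-cKO T cells between stimulations. With the symbols as listed it was, in this order, 4 of 16, 4 of 16, 8 of 18, 10 of 16 and 12 of 15 listed genes tested, beside 2734 of 9467, 2750 of 9328, 3034 of 10454, 4346 of 9320 and 4483 of 9695 of all genes, so that between genotypes the listed genes' share was no higher than that of all genes. With 1 library left out it ranged from 5 to 6 after allogeneic and from 5 to 6 after polyclonal stimulation, from 6 to 7 in the interaction, from 9 to 9 in WT and from 9 to 11 in PERK-cKO T cells. Single members gave 840 values under the alternatives. Of 450 values without a library left out, 430 kept direction and side of the threshold, 10 lost the call, 7 gained it and 3 changed direction, and of 390 with a library left out the numbers were 370, 12, 5 and 3. Changes of direction concerned values near 0 or other entries. After allogeneic stimulation, Slc1a5 ranged from -0.27 without WT replicate 3 to 0.0217 without WT replicate 1. After polyclonal stimulation, Slc1a5 was -0.64 with the symbols as listed and Ppp1r15a ranged from -0.0171 without WT replicate 2 to 0.44 without WT replicate 3. In the interaction, Aldh18a1 was 0.0072 with at least 10 counts in every library and Slc1a5 0.25 with the symbols as listed. Between stimulations in WT, Ppp1r15a ranged from -0.39 without WT polyclonal replicate 2 to 0.0737 without WT polyclonal replicate 3. Their cause was not tested. Without PERK-cKO allogeneic replicate 2, Vldlr passed between stimulations in PERK-cKO T cells (0.85, adjusted p = 0.0287), and without WT polyclonal replicate 2, Ppp1r15a passed in the interaction (0.81, adjusted p = 0.0156). Asns passed in the interaction under 9 alternatives. Over all genes, entries at least 50% inside exons gave 339 to 612 calls of 1008 to 1143 genes, against 1250 to 2139 of 3937 to 4402. Without a filter, the median of all genes was 0.19 in the interaction and 0.16 in PERK-cKO T cells between stimulations.

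The labels do not say whether libraries with the same replicate number share more than that number. Their deviations from the group means correlated at -0.098 to 0.098. With 3 libraries per group this cannot tell whether they were paired. With the replicate number as a block, members called were 6, 5, 6, 9 and 10 in the order above, and Gars after polyclonal stimulation lost its call (0.24, adjusted p = 0.0568). Libraries did not correlate best with their own number throughout. Depth limits Cth and Psat1, of which 3 counts are 1.29 to 1.88 CPM.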
